A study of Mus musculus with 2 samples.

Results

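The genes of glycolysis, lactate handling and glycogen metabolism were examined in interscapular brown adipose tissue (iBAT) of mice bred to lack METTL3, an RNA m6A methyltransferase, in brown adipocytes. The 39 genes were a list of enzymes, their regulators and the lactate transporters, found by symbol and Ensembl identifier among the 52768 genes of each table. Of these, 8 were taken as muscle isoforms (*Pfkm*, *Aldoa*, *Pgam2*, *Eno3*, *Fbp2*, *Pygm*, *Phka1* and *Phkg1*) and set against the other 31. The BKO library came from METTL3flox/flox mice that also carried UCP1-iCre+/-, and the flox/flox library from mice with the floxed alleles alone. All mice were C57BL/6 and 8 weeks old, and RNA of the iBAT of 4 mice was pooled for each genotype. Cre was expressed from the *Ucp1* locus, which is active in brown adipocytes, so that the other cells of the tissue keep intact alleles. There was 1 library per genotype, so no difference below has a replicate check and no p-value was computed.

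Glycolysis splits glucose into pyruvate and yields ATP, and lactate dehydrogenase converts pyruvate to lactate and back. Glycogen is the branched store of glucose that glycogen synthase extends and glycogen phosphorylase shortens. Many of these steps are encoded by several genes, of which 1 form is used mainly in skeletal muscle and others in liver, brain or most cells. Brown adipose tissue takes up glucose strongly when it is stimulated to make heat, and it holds a glycogen store.

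Levels are given as FPKM, fragments scaled by exon length and by library size, so that genes can be compared within a library. The fragments behind all 39 genes and behind 92.6% of the genes tested could be recovered. Recovered fragments came to 17465662 in the library labelled BKO and 16920422 in the flox/flox library. With the rest estimated from FPKM and exon length, the totals over annotated genes were 20235593 in the library labelled BKO and 18937690 in the flox/flox library. Folds divide one FPKM value by the other and carry their exact (Clopper-Pearson) 95% intervals in parentheses, for counting error only. Log2 ratios were taken after adding 0.1 FPKM to both values, and genes past 2-fold on that scale were called higher or lower if their mean reached 1 FPKM. *Mettl3* itself (chromosome 14, 52294841 to 52305128, minus strand, GRCm38) had a level of 2.38 FPKM in the library labelled BKO and 1.80 FPKM in the flox/flox library. With 253 BKO-labelled and 165 flox/flox fragments this was 1.32-fold higher (1.08 to 1.62), the opposite of what a deletion would give. The value for the whole gene mixes the floxed exons with the others, so it does not check the label, and the sample is called the library labelled BKO, or BKO-labelled iBAT, throughout. All 10 brown adipocyte markers were present, at 2.13 FPKM or more in the library labelled BKO and 5.98 FPKM or more in the flox/flox library. *Ucp1*, which makes heat by uncoupling respiration, was at 537 FPKM in the library labelled BKO and 3164 FPKM in the flox/flox library. The Cre was inserted in *Ucp1* itself and the flox/flox mice carried none, so the insertion and the deletion cannot be told apart in this value.

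Of the 12205 genes that averaged 1 FPKM or more, 11.0% rose past 2-fold in the library labelled BKO and 5.91% fell past it. Of the 39 glycolysis and glycogen genes, 36 passed this filter, and *Hk3*, *Aldoc* and *Eno2* did not. Among the 36, 8 genes (22.2%) were higher, 3 (8.33%) were lower and 25 stayed within 2-fold. Those higher were *Pgam2*, *Pygm*, *Eno3*, *Slc16a3*, *Phkg1*, *Pfkfb4*, *Ppp1r3c* and *Pfkm*, of which *Slc16a3*, *Phkg1* and *Pfkfb4* reached a mean of 1 FPKM only through their level in the library labelled BKO. The lower genes were *Pfkfb3*, *Fbp2* and *Gbe1*, and none of these 3 calls held when both libraries were rescaled to the same FPKM sum (TPM). All 3 held when mitochondrial genes were left out of that sum. The 13 mitochondrial mRNAs summed to 75041 FPKM in the library labelled BKO and 156785 FPKM in the flox/flox library. The median log2 ratio was 1.70 over the 8 muscle isoforms and -0.06 over the 28 other members, against 0.02 over all genes tested. TPM moved the median of all tested genes by 0.33 and scaling to each library's own fragment total moved it by 0.11, so small ratios carry a direction only relative to such a shift. Under TPM, 83.7% of all genes past 2-fold were higher, against 65.0% with the deposited scaling, and the 36 genes gave 9 higher and 0 lower. Among all genes tested, 17.1% were higher and 3.33% lower under TPM.

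**Figure D1:**
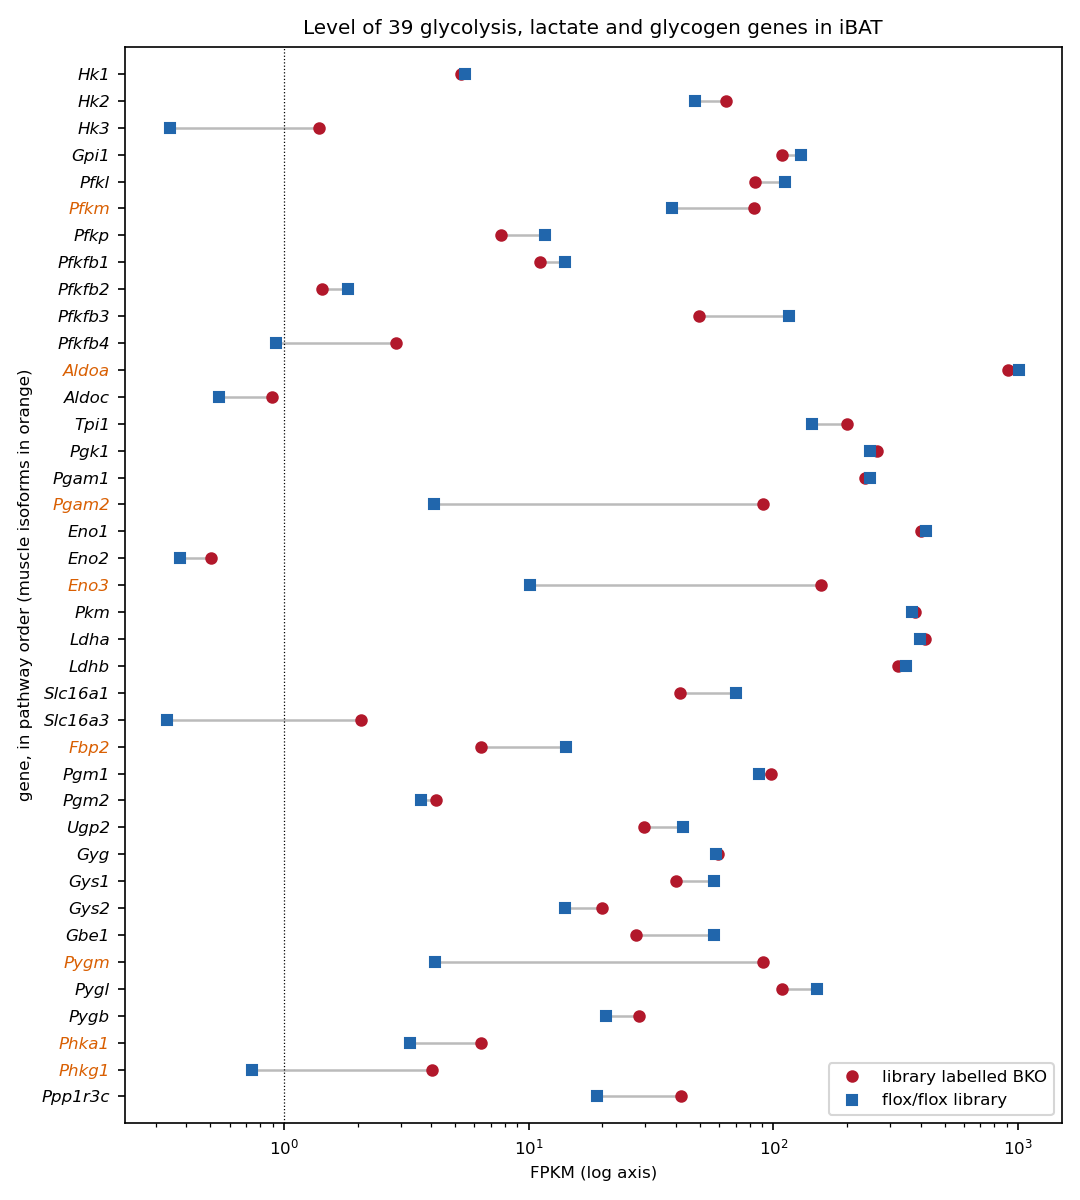
FPKM (log axis) of the 39 genes in pathway order, with red circles for the library labelled BKO, blue squares for the flox/flox library, muscle isoforms named in orange and a dotted line at 1 FPKM. *Pgam2*, *Eno3* and *Pygm* show the widest gaps, at 91.0, 156 and 90.6 FPKM in the library labelled BKO against 4.09, 10.1 and 4.16 FPKM in the flox/flox library, while most abundant enzymes nearly coincide.

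The promoters of *Pgam2*, *Eno3* and *Pygm* are shown because these muscle isoforms had the 3 highest ratios of the 36 genes. Windows of 300 bases, 250 before the start and 50 after it, came from RefSeq (GRCm38.p6), and 38 of the 39 genes had a window, all but *Gys2*. Capitals mark CAGCTG, the E-box form bound by muscle regulatory factors, and CATTCC, the MCAT element bound by TEAD factors, here read on the other strand as GGAATG.
*Pgam2* (chr11:5803747-5804046, minus strand): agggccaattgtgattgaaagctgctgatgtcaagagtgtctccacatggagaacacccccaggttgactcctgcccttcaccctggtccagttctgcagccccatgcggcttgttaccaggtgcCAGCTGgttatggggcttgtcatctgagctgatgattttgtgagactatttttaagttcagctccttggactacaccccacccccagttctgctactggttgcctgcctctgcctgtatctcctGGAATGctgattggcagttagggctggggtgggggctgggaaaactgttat
*Eno3* (chr11:70656926-70657225, plus strand): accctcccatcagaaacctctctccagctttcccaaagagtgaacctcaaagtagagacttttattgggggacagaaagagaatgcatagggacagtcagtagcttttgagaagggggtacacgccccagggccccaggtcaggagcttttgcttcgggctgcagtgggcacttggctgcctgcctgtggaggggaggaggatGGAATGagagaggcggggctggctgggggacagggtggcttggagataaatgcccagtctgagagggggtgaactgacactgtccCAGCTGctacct
*Pygm* (chr19:6384158-6384457, plus strand): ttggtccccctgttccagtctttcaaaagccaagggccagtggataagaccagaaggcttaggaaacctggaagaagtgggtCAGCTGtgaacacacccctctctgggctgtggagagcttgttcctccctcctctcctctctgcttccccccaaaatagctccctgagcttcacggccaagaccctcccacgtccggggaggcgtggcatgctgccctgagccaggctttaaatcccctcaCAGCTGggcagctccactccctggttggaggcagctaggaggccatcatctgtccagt

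*Pgam2* has CAGCTG starting 125 bases before the start and GGAATG 1 base before it. *Eno3* has GGAATG 47 bases before and CAGCTG 38 bases after the start, and *Pygm* has CAGCTG 168 and 8 bases before the start. Both strands were searched in every window. CAGCTG was in 6 of the 13 windows of the muscle isoforms (46.2%), in those of *Aldoa*, *Eno3*, *Fbp2*, *Pgam2*, *Phka1* and *Pygm*, and in 7 of the 43 windows of the other members (16.3%), against 16.3% of all 32851 windows. *Fbp2*, which fell, and *Aldoa*, which stayed within 2-fold, thus hold these letters as well, and *Pfkm* and *Phkg1*, which rose, do not. CATTCC was in 3 of the 13 windows of the muscle isoforms (23.1%) and 5 of the 43 of the other members (11.6%), against 14.7% of all windows. Windows of a gene can overlap, so that 1 site may be counted more than once, as with CATTCC in *Eno1*. By gene, CATTCC was in 3 of 8 muscle isoforms and 4 of 30 other members. For MEF2 only 1 form of the core was searched, CTA and TAG separated by any 4 bases. It was in 1 of the 13 windows of the muscle isoforms (*Phka1*) and 1 of the 43 of the other members (*Ldhb*), against 3.69% of all windows. Forms with another ending were not counted, such as ctatttttaa in the *Pgam2* window, so these counts do not show that a window lacks a MEF2 site. The core of the hypoxia response element, ACGTG or GCGTG, which can overlap one another on opposite strands and is left in lower case, was in 9 of the 13 windows of the muscle isoforms (69.2%) and 32 of the 43 of the other members (74.4%), against 43.8% of all windows. A match gives the letters in a window and not a bound site.

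Glucose enters the pathway through hexokinase, which traps it as glucose 6-phosphate. *Hk2*, the insulin-responsive form of muscle and fat, was at 64.1 FPKM in the library labelled BKO and 47.8 FPKM in the flox/flox library, 1.34-fold higher (1.30 to 1.39). It made up 90.6% of the summed hexokinase FPKM in BKO-labelled and 89.1% in flox/flox iBAT. *Hk1*, the widely expressed form, was at 5.28 FPKM in BKO-labelled and 5.49 FPKM in flox/flox iBAT. *Hk2* was thus the main form in both libraries and did not reach 2-fold. *Hk3*, a form found in white blood cells, was at 1.40 FPKM in the library labelled BKO and 0.342 FPKM in the flox/flox library, from 104 BKO-labelled and 22 flox/flox fragments. Its ratio of 4.08 (2.56 to 6.79) was not called because its mean lay under the filter. Macrophage markers were higher too, all 10 of 10 past 2-fold (1 of them, *Itgam*, tested only through its BKO-labelled level), against 11.0% of all genes tested. Their summed level was 563 FPKM in the library labelled BKO and 109 FPKM in the flox/flox library. *Lyz2*, a lysozyme made by myeloid cells, stood at 237 FPKM in BKO-labelled and 41.0 FPKM in flox/flox iBAT. The part of such cells in the *Hk3* value was not tested, and in bulk tissue more cells of a type cannot be told apart from more RNA per cell. *Gpi1*, which turns glucose 6-phosphate into fructose 6-phosphate, was at 109 FPKM in the library labelled BKO and 130 FPKM in the flox/flox library, with a log2 ratio of -0.26 that turned positive under TPM.

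Phosphofructokinase commits the sugar to glycolysis, and of its forms only the muscle one passed 2-fold. *Pfkm* (chromosome 15, 98092589 to 98132451, plus strand) was at 83.0 FPKM in the library labelled BKO and 38.7 FPKM in the flox/flox library, from 4966 BKO-labelled and 1999 flox/flox fragments, and was 2.15-fold higher (2.04 to 2.26). *Pfkl*, the liver form, was at 84.4 FPKM in BKO-labelled and 111 FPKM in flox/flox iBAT, 1.32-fold lower (1.28 to 1.35). *Pfkp*, the platelet form, was at 7.68 FPKM in BKO-labelled and 11.7 FPKM in flox/flox iBAT, 1.52-fold lower (1.43 to 1.61). The forms thus went opposite ways with the deposited scaling, while under TPM the log2 ratios were 1.43 for *Pfkm*, -0.06 for *Pfkl* and -0.26 for *Pfkp*. The sum of the step was 175 FPKM in the library labelled BKO and 161 FPKM in the flox/flox library. *Pfkm* gave 47.4% of the summed FPKM (46.6 to 48.2) in the library labelled BKO and 24.0% (23.1 to 24.8) in the flox/flox library. In the flox/flox library *Pfkm* already lay above the 28.5 FPKM of the most abundant adult muscle marker there.

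The bifunctional PFKFB enzymes set the level of fructose 2,6-bisphosphate, the strongest activator of phosphofructokinase. *Pfkfb3*, the form with the highest kinase over phosphatase activity and the most abundant here, fell to 49.7 FPKM in the library labelled BKO, against 116 FPKM in the flox/flox library. It rested on 7611 BKO-labelled and 15329 flox/flox fragments and was 2.33-fold lower (2.27 to 2.40). The call was lost under TPM, where its log2 ratio was -0.88. *Pfkfb4* rose to 2.86 FPKM in the library labelled BKO, against 0.927 FPKM in the flox/flox library, from 282 BKO-labelled and 79 flox/flox fragments. Its ratio was 3.08 (2.39 to 4.01), at a level far below *Pfkfb3*. *Pfkfb1*, the form of liver and muscle, was at 11.1 FPKM in BKO-labelled and 14.1 FPKM in flox/flox iBAT. *Pfkfb2*, the heart form, was at 1.43 FPKM in BKO-labelled and 1.83 FPKM in flox/flox iBAT, and both genes stayed within 2-fold. Together the 4 genes summed to 65.1 FPKM in the library labelled BKO and 133 FPKM in the flox/flox library, 2.04-fold lower.

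Aldolase splits fructose 1,6-bisphosphate, and triosephosphate isomerase interconverts the products. *Aldoa* (chromosome 7, 126795234 to 126800751, minus strand) had the highest level of the 39 genes in both libraries, at 908 FPKM in the library labelled BKO and 1011 FPKM in the flox/flox library. It is the aldolase of muscle but also of most other cells, and its log2 ratio of -0.16 turned positive under TPM. It made up 99.90% of the aldolase FPKM in BKO-labelled and 99.95% in flox/flox iBAT, with *Aldoc*, the brain form, at 0.893 FPKM in BKO-labelled and 0.543 FPKM in flox/flox iBAT. A second entry of the annotation named *Aldoa* just upstream (126800790 to 126809108, minus strand) was at 1.61 FPKM in the library labelled BKO and 0.0716 FPKM in the flox/flox library. It rested on 26 BKO-labelled fragments and 1 flox/flox fragment, a ratio of 22.5 (3.69 to 921), and was not counted as a member. *Tpi1* was at 200.4 FPKM in the library labelled BKO and 144 FPKM in the flox/flox library, 1.39-fold higher (1.35 to 1.43). It shares 34 exon bases with *Spsb2* on the other strand, which was at 19.3 FPKM in BKO-labelled and 3.59 FPKM in flox/flox iBAT.

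*Pgk1*, the phosphoglycerate kinase that makes the first ATP of the pathway, was at 265 FPKM in the library labelled BKO and 248 FPKM in the flox/flox library, 1.07-fold higher (1.04 to 1.10). *Gapdh*, the enzyme before it, was outside the list and was looked up after its values were seen. It was listed at only 3.13 FPKM in BKO-labelled and 4.14 FPKM in flox/flox iBAT, from 262 BKO-labelled and 299 flox/flox fragments, and has many processed copies in the genome, so its value is uncertain. *Tpi1*, *Pgk1*, *Pgam1*, *Ldha* and *Aldoa* also have named copies in the annotation, and how reads that match several places were treated is not given in the sources used here. Exons of 14 of the 39 genes overlap those of another gene on either strand, by up to 17.4% of their length (*Pfkfb2*), and whether counting used strand is not stated, so that reads there cannot be assigned with certainty.

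Phosphoglycerate mutase and enolase carried 2 of the 3 highest ratios. *Pgam2*, the muscle mutase (chromosome 11, 5801640 to 5803733, minus strand), rose to 91.0 FPKM in the library labelled BKO, against 4.09 FPKM in the flox/flox library. It rested on 1548 BKO-labelled and 60 flox/flox fragments and was 22.3-fold higher (17.2 to 29.3), rank 118 of the 12205 ratios. *Pgam1*, the form of most other tissues, was at 237 FPKM in BKO-labelled and 247 FPKM in flox/flox iBAT, a log2 ratio of -0.07 that turned positive under TPM and with own fragment totals. *Pgam2* thus made up 27.8% of the step (26.7 to 28.9) in the library labelled BKO and 1.62% (1.24 to 2.08) in the flox/flox library, and the sum of the step was 328 FPKM in BKO-labelled and 252 FPKM in flox/flox iBAT.

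*Eno3*, the beta enolase of muscle (chromosome 11, 70657202 to 70662513, plus strand), rose to 156 FPKM in the library labelled BKO, against 10.1 FPKM in the flox/flox library. It rested on 5489 BKO-labelled and 308 flox/flox fragments and was 15.4-fold higher (13.7 to 17.3), rank 155. *Eno1*, the alpha enolase of most cells, was at 402 FPKM in the library labelled BKO and 422 FPKM in the flox/flox library, a log2 ratio of -0.07 with the same change of sign as *Pgam1*. *Eno2*, the neuronal form, was at 0.504 FPKM in BKO-labelled and 0.377 FPKM in flox/flox iBAT with an interval of 0.834 to 2.17 for its ratio, so no difference was detectable at this depth. *Eno3* made up 27.9% of the enolase FPKM (27.4 to 28.5) in the library labelled BKO and 2.34% (2.09 to 2.61) in the flox/flox library. *Eno1b*, a gene nearly identical to *Eno1* and named here after its values were seen, was at 28.5 FPKM in BKO-labelled and 149 FPKM in flox/flox iBAT, 5.23-fold lower (4.89 to 5.61), so the division of reads between it and *Eno1* is uncertain.

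The last steps did not change by 2-fold. *Pkm*, the pyruvate kinase of muscle and most other tissues, was at 377 FPKM in the library labelled BKO and 369 FPKM in the flox/flox library, 1.02-fold higher (1.01 to 1.04). *Ldha*, the lactate dehydrogenase subunit of glycolytic tissue, was at 417 FPKM in BKO-labelled and 398 FPKM in flox/flox iBAT. *Ldhb*, the heart subunit, was at 324 FPKM in BKO-labelled and 347 FPKM in flox/flox iBAT. Both subunits were abundant, and each tetramer can hold either. *Ldha* made up 56.3% of their summed FPKM (55.7 to 56.8) in the library labelled BKO and 53.5% (52.9 to 54.1) in the flox/flox library. The log2 ratio of *Ldhb*, -0.10, turned positive under TPM and with own fragment totals. Over the 10 tested genes from hexokinase to pyruvate kinase that are no muscle isoforms, 0 passed 2-fold, and log2 ratios lay between -0.60 and 0.47. Among all genes tested, 11.0% were higher and 5.91% lower.

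**Figure D2:**
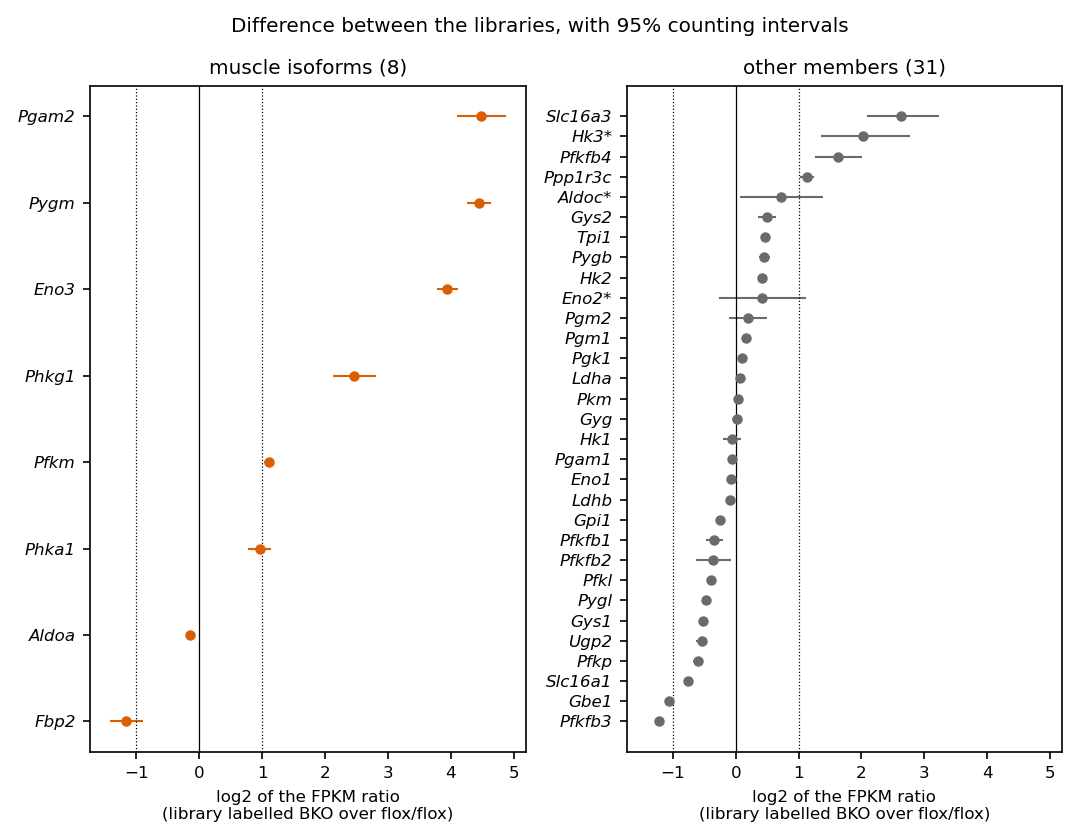
Log2 of the plain FPKM ratio (library labelled BKO over flox/flox) of the 8 muscle isoforms and the 31 other members, with bars for 95% counting intervals, dotted lines at 2-fold and asterisks on the 3 genes under the filter. The muscle isoforms run between 2.23-fold lower for *Fbp2* and 22.3-fold higher for *Pgam2*, and most other members lie between the dotted lines.

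Lactate leaves and enters cells through the monocarboxylate transporters. *Slc16a1*, which encodes MCT1, was at 41.5 FPKM in the library labelled BKO and 70.3 FPKM in the flox/flox library, 1.69-fold lower (1.62 to 1.77). *Slc16a3*, which encodes MCT4, the exporter of glycolytic muscle and activated myeloid cells, rose to 2.07 FPKM in the library labelled BKO, against 0.333 FPKM in the flox/flox library. It rested on 223 BKO-labelled and 31 flox/flox fragments and was 6.21-fold higher (4.25 to 9.36). *Slc16a1* still made up 95.3% of the summed transporter FPKM in the library labelled BKO and 99.5% in the flox/flox library. Both muscle and macrophage markers were higher in the same library, and the part of either in the *Slc16a3* value was not tested.

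*Fbp2*, the muscle fructose bisphosphatase, which reverses the phosphofructokinase step, was the muscle isoform that fell. It was at 6.39 FPKM in the library labelled BKO and 14.3 FPKM in the flox/flox library, from 190 BKO-labelled and 366 flox/flox fragments, and was 2.23-fold lower (1.87 to 2.67). The call was lost under TPM, at a log2 ratio of -0.81. Its direction was opposite to that of *Pfkm*, *Pgam2*, *Eno3*, *Pygm* and *Phkg1*.

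Glycogen synthesis starts from glucose 1-phosphate, and the genes up to the primed chain stayed within 2-fold. *Pgm1* (ENSMUSG00000025791, chromosome 4), a phosphoglucomutase that links it to glycolysis, was at 97.8 FPKM in BKO-labelled and 87.6 FPKM in flox/flox iBAT. *Pgm2* (ENSMUSG00000029171, chromosome 5), of the same enzyme family, was at 4.18 FPKM in BKO-labelled and 3.64 FPKM in flox/flox iBAT. *Ugp2*, which makes the UDP-glucose donor, was at 29.5 FPKM in BKO-labelled and 42.9 FPKM in flox/flox iBAT, 1.45-fold lower. *Gyg*, the glycogenin that primes the chain, was at 59.2 FPKM in BKO-labelled and 58.1 FPKM in flox/flox iBAT. Glycogen synthase adds the glucose units, and most of it was *Gys1*, the form of muscle and most other tissues. *Gys1* was at 40.0 FPKM in BKO-labelled and 57.3 FPKM in flox/flox iBAT, 1.43-fold lower (1.37 to 1.49). *Gys2*, the liver form, was at 19.9 FPKM in BKO-labelled and 14.1 FPKM in flox/flox iBAT, 1.41-fold higher (1.28 to 1.56). *Gys2* made up 33.2% of the step (31.7 to 34.7) in the library labelled BKO and 19.7% (18.5 to 21.1) in the flox/flox library, although neither gene reached 2-fold. *Gbe1*, the branching enzyme (chromosome 16, 70313949 to 70569716, plus strand), fell to 27.5 FPKM in the library labelled BKO, against 57.4 FPKM in the flox/flox library, from 2983 BKO-labelled and 5367 flox/flox fragments. It was 2.08-fold lower (1.99 to 2.18), near the threshold, and the call was lost under TPM and with own fragment totals, at log2 ratios of -0.72 and -0.94.

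Glycogen breakdown showed the widest difference in make-up of the steps with several members. *Pygm*, the muscle phosphorylase (chromosome 19, 6384399 to 6398459, plus strand), rose to 90.6 FPKM in the library labelled BKO, against 4.16 FPKM in the flox/flox library. It rested on 5901 BKO-labelled and 234 flox/flox fragments and was 21.8-fold higher (19.1 to 24.9), rank 121. *Pygl*, the liver form, was at 109 FPKM in BKO-labelled and 151 FPKM in flox/flox iBAT, 1.39-fold lower (1.36 to 1.42). *Pygb*, the brain form, was at 28.2 FPKM in BKO-labelled and 20.6 FPKM in flox/flox iBAT, 1.37-fold higher (1.29 to 1.45). *Pygm* made up 39.8% of the step (39.1 to 40.6) in the library labelled BKO and 2.36% (2.07 to 2.68) in the flox/flox library, and *Pygl* made up 47.8% in BKO-labelled and 85.9% in flox/flox iBAT. The summed phosphorylase level was 227 FPKM in the library labelled BKO and 176 FPKM in the flox/flox library, 1.29-fold higher.

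**Figure D3:**
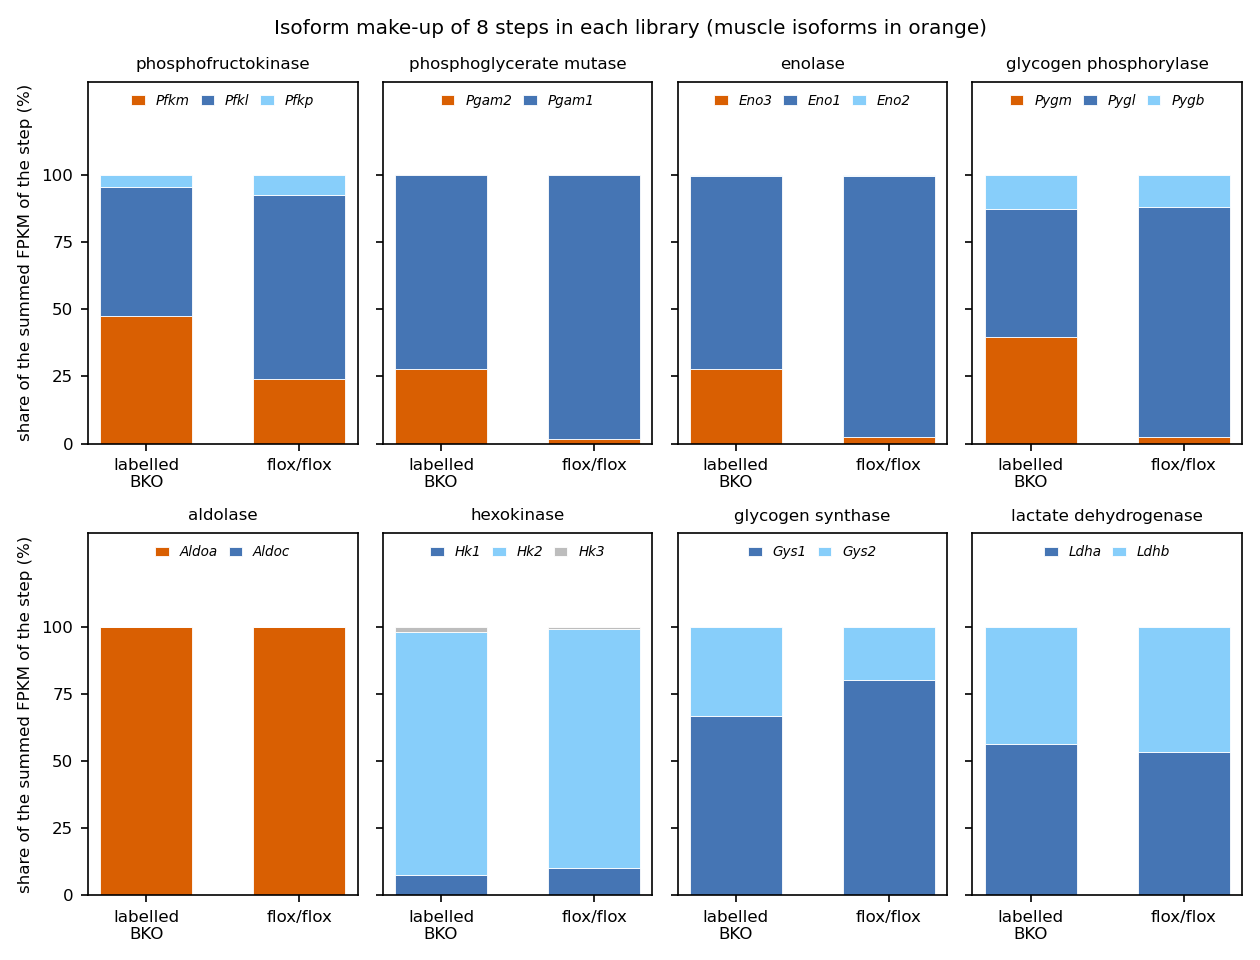
Percent of the summed FPKM of each of 8 steps held by each isoform, with the library labelled BKO as the left bar and the flox/flox library as the right bar of each panel and muscle isoforms in orange. In the library labelled BKO against the flox/flox library, the orange share is 47.4% against 24.0% for phosphofructokinase, 27.8% against 1.62% for phosphoglycerate mutase, 27.9% against 2.34% for enolase and 39.8% against 2.36% for glycogen phosphorylase, and is above 99% of aldolase in both libraries.

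Phosphorylase kinase switches phosphorylase on, and a targeting subunit of protein phosphatase 1 brings the opposing phosphatase to glycogen. *Phkg1*, the catalytic subunit of muscle (chromosome 5, 129863421 to 129898549, minus strand), rose to 4.05 FPKM in the library labelled BKO, against 0.738 FPKM in the flox/flox library. It rested on 533 BKO-labelled and 84 flox/flox fragments and was 5.48-fold higher (4.35 to 6.98), with 630 exon bases shared with *Sumf2* on the other strand. *Phka1*, the alpha subunit of muscle, was at 6.41 FPKM in BKO-labelled and 3.29 FPKM in flox/flox iBAT, 1.95-fold higher (1.72 to 2.21), under 2-fold with the deposited scaling and past it under TPM and with own fragment totals. *Ppp1r3c*, the targeting subunit also called PTG (chromosome 19, 36731731 to 36736653, minus strand), rose to 41.9 FPKM in the library labelled BKO, against 19.1 FPKM in the flox/flox library, 2.20-fold higher (2.03 to 2.38). It is no muscle isoform and was already abundant in the flox/flox library. Of the 13 genes of glycogen metabolism tested, 3 (23.1%) were higher and 1 (7.69%) lower, with a median log2 ratio of 0.19. Among all genes tested, 11.0% were higher and 5.91% lower, and 1 of the 3 higher genes here, *Phkg1*, was tested only through its BKO-labelled level.

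**Figure D4:**
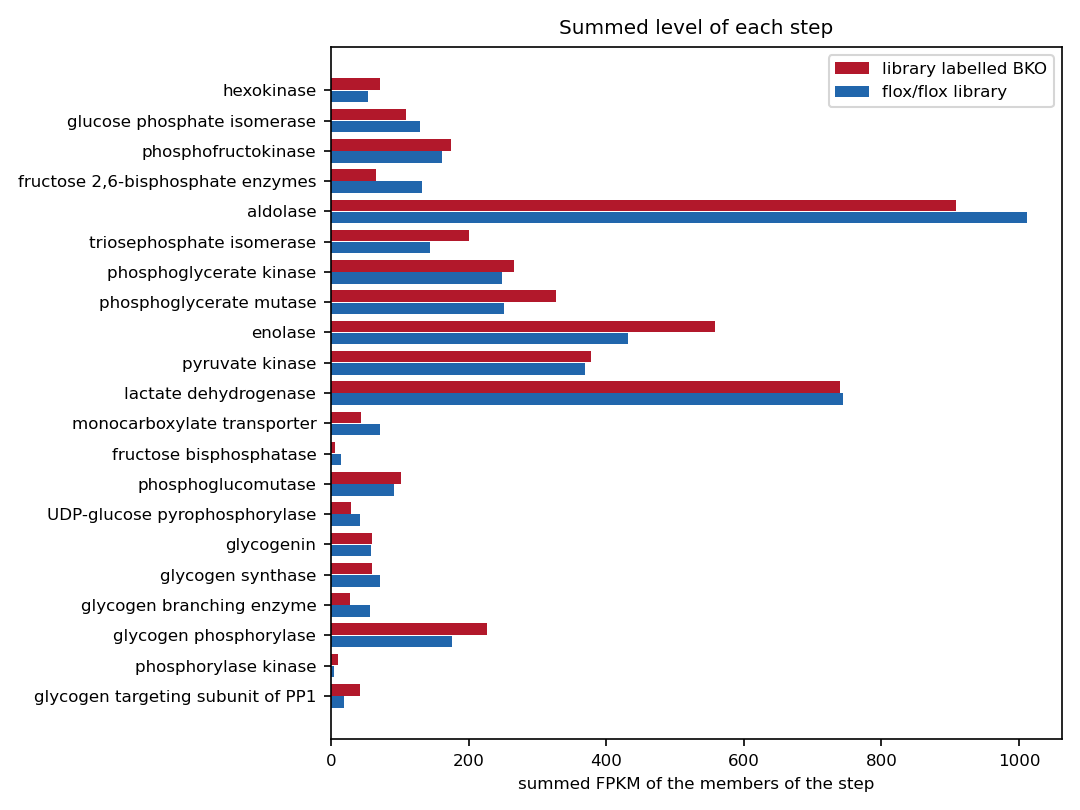
Summed FPKM of the members of each step (bars start at 0), with the library labelled BKO in red above the flox/flox library in blue. Aldolase is the most abundant step, at 909 FPKM in BKO-labelled and 1012 FPKM in flox/flox iBAT, and the PFKFB enzymes stand at 65.1 FPKM in BKO-labelled and 133 FPKM in flox/flox iBAT.

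Markers of adult skeletal muscle rose with the muscle isoforms. Of 25 listed markers, all 24 tested rose past 2-fold in the library labelled BKO, at log2 ratios of 2.59 to 8.30 and a median of 5.71. Of these 24, 12 reached a mean of 1 FPKM only through their level in the library labelled BKO and could be counted in no other direction. The other 12 were all higher as well, with a median of 5.62. The summed level of the 25 markers was 4512 FPKM in the library labelled BKO and 114 FPKM in the flox/flox library, 39.7-fold higher. *Acta1*, skeletal muscle actin, was at 1389 FPKM in BKO-labelled and 16.5 FPKM in flox/flox iBAT. *Ckm*, the muscle creatine kinase, was at 183 FPKM in BKO-labelled and 2.87 FPKM in flox/flox iBAT. Such fibre genes were thus detected at low levels in the flox/flox library as well. *Myh4*, a fast myosin heavy chain, was at 301 FPKM in BKO-labelled and 6.78 FPKM in flox/flox iBAT. In the flox/flox library 12 of the 25 markers reached 1 FPKM, against 24 in the library labelled BKO, and *Tnnc2* was listed at 0 in both. The highest ratios among the glycolysis and glycogen genes, 22.3 for *Pgam2* and 21.8 for *Pygm*, lay below the 84.4 of *Acta1*, the 63.7 of *Ckm* and the 44.4 of *Myh4*. Over the whole marker list, 22 of the 24 tested markers had a ratio above that of *Pgam2*. These 22 include all 12 tested only through their BKO-labelled level, for which the filter itself favours a high ratio. The other 2 of the 24, named after their values were seen, were *Myl1*, a myosin light chain, at 9.67 (9.08 to 10.3) and *Des*, the muscle intermediate filament desmin, at 6.03 (5.69 to 6.39). The part of muscle cells or fibres in the tissue in the values of the muscle isoforms was not tested. Brown adipocyte markers were mixed, with 3 of 10 at least 2-fold lower and none at least 2-fold higher. Their sum was 5185 FPKM in BKO-labelled and 7660 FPKM in flox/flox iBAT, but without *Ucp1* the other 9 summed to 4648 FPKM in BKO-labelled and 4496 FPKM in flox/flox iBAT. Of these 9, *Adipoq*, the adipocyte hormone adiponectin, was 1.73-fold higher (1.70 to 1.76), *Fabp4* 1.12-fold higher (1.11 to 1.13) and *Plin1*, a lipid droplet protein, 1.07-fold higher (1.05 to 1.08). The other 6 were lower, *Prdm16* by 2.81-fold (2.50 to 3.16) and *Ppargc1a* by 2.45-fold (2.23 to 2.68). *Adrb3* was 1.78-fold lower, *Dio2* 1.59-fold lower, and *Cidea* and *Pparg* were each 1.41-fold lower. These 9 genes were also named after their values were seen. For *Adipoq* and *Fabp4* the direction is opposite to that of the authors, who reported lower mRNA of both in BKO iBAT by quantitative PCR. Endothelial markers summed to 78.8 FPKM in BKO-labelled and 187 FPKM in flox/flox iBAT, with 4 of 7 at least 2-fold lower. Erythroid markers summed to 567 FPKM in BKO-labelled and 834 FPKM in flox/flox iBAT, with 0 of 5 tested past 2-fold. Schwann cell and neuron markers summed to 28.0 FPKM in BKO-labelled and 51.3 FPKM in flox/flox iBAT, with 2 of 5 tested at least 2-fold lower and 1, *Uchl1*, 18.6-fold higher (6.99 to 69.7) and tested only through its BKO-labelled level. Neutrophil markers summed to 28.1 FPKM in BKO-labelled and 10.8 FPKM in flox/flox iBAT, with 3 of 4 tested at least 2-fold higher and 1, *Elane*, 3.21-fold lower (1.66 to 6.59). Of the 3 higher, *Csf3r*, at 1.97 FPKM in BKO-labelled and 0.904 FPKM in flox/flox iBAT, was tested only through its BKO-labelled level.

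Other genes of the same pathways mostly lay within 2-fold, as did most of all genes tested, of which 11.0% were higher and 5.91% lower. Of 17 further glycolysis genes, 9 passed the filter, 2 (22.2%) were higher and 0 lower, with a median log2 ratio of -0.08. They were *Tigar*, a phosphatase of fructose 2,6-bisphosphate, at 11.0 FPKM in BKO-labelled and 4.77 FPKM in flox/flox iBAT, 2.32-fold higher (2.03 to 2.65), and *Minpp1*. *Minpp1*, a phosphatase of inositol phosphates, was at 13.9 FPKM in BKO-labelled and 5.79 FPKM in flox/flox iBAT, 2.40-fold higher (2.08 to 2.77). *Bsg*, the partner protein of the lactate transporters, had the highest level of the list, at 243 FPKM in BKO-labelled and 256 FPKM in flox/flox iBAT. Of 14 tested further glycogen genes, 2 (14.3%) were higher and 0 lower, with a median of 0.36. *Ppp1r3a*, the glycogen targeting subunit of muscle, rose to 2.08 FPKM in the library labelled BKO, against 0.0246 FPKM in the flox/flox library. It rested on 293 BKO-labelled and 3 flox/flox fragments, a ratio of 84.3 (28.6 to 411), and was tested only through its BKO-labelled level. *Stbd1*, which tethers glycogen to membranes, was 2.30-fold higher (1.91 to 2.78), and *Ppp1r3b*, the most abundant of the list, was at 36.6 FPKM in BKO-labelled and 31.2 FPKM in flox/flox iBAT. In the pentose phosphate pathway 1 of 8 genes (12.5%) was past 2-fold. This was *H6pd*, the hexose 6-phosphate dehydrogenase of the endoplasmic reticulum, at 105 FPKM in the library labelled BKO and 49.3 FPKM in the flox/flox library. *Taldo1*, transaldolase, was at 360.3 FPKM in BKO-labelled and 402 FPKM in flox/flox iBAT.

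**Figure D5:**
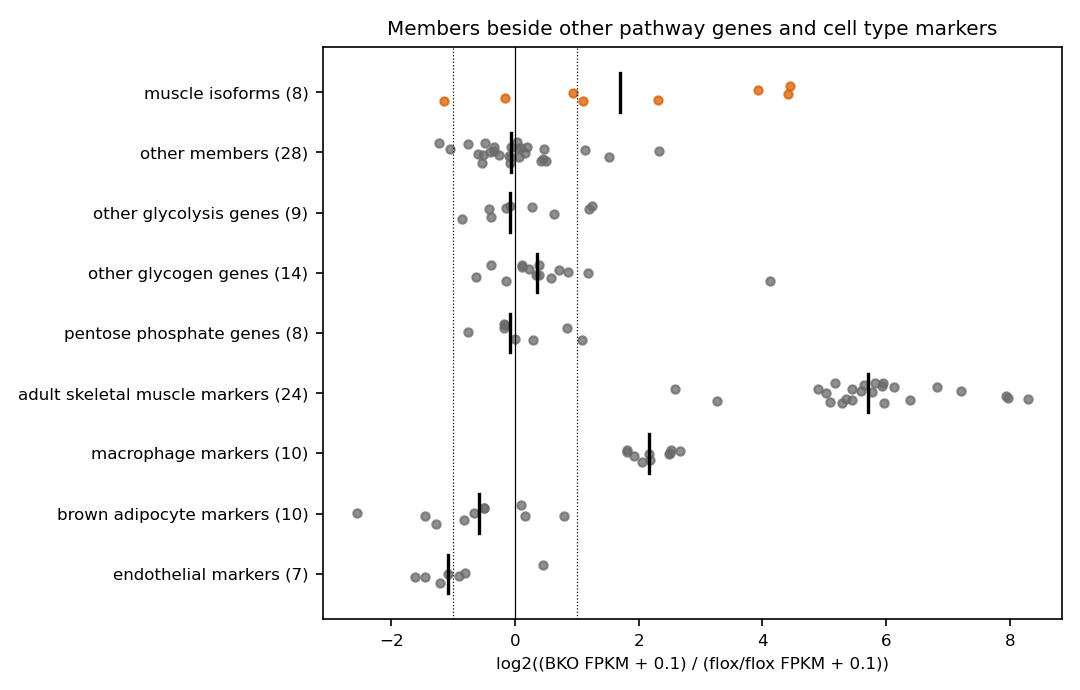
Log2 ratio (library labelled BKO over flox/flox, 0.1 FPKM added) of each tested gene, 1 point per gene, for the muscle isoforms, the other members, 3 lists of other pathway genes and 4 lists of cell type markers, with black bars at the medians and dotted lines at 2-fold. The medians are 1.70 for the muscle isoforms, -0.06 for the other members and 5.71 for adult skeletal muscle markers.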

How the data were processed

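RNA from iBAT of 8-week-old mice was pooled from 4 mice for each genotype and sequenced as paired-end libraries, 1 per genotype. The authors aligned the reads to the mouse genome (GRCm38) with TopHat2, counted them per gene with HTSeq (version 0.6.1) and deposited the FPKM of each gene. The treatment of strand and of reads matching several genes is not given in the sources used here. Of 52768 genes, 52489 were matched by identifier to GENCODE M21. Times exon length, the deposited FPKM were whole multiples of a constant for each library, within 0.001 fragments, which gave the fragments behind all 39 members (4 of them at another exon length) and behind 92.6% of the genes tested. These constants show that the deposited FPKM were scaled to 20240633 fragments for the library labelled BKO and 17480546 for the flox/flox library.

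Log2 ratios of BKO-labelled over flox/flox iBAT were taken after adding 0.1 FPKM, genes averaging 1 FPKM or more were kept, and those past 2-fold were counted. No count model was run. Intervals are exact (Clopper-Pearson) and cover counting error only, because there was 1 library per genotype. No molecular identifiers are described and reads may not be separate molecules, so the intervals may be too narrow even for that error. A share within a step is the FPKM of a gene over the summed FPKM of the step. Alternatives were pseudocounts of 1 and 0.01 FPKM, TPM with and without mitochondrial genes, own fragment totals, centring on the median, no filter and a filter at 5 FPKM. Named genes were all 39 members, *Mettl3*, the most abundant gene and each gene past 2-fold in the other pathway lists, and leading cell type markers. *Gapdh*, *Eno1b*, *Spsb2*, *Sumf2*, *Myl1*, *Des*, *Adipoq*, *Fabp4*, *Plin1*, *Prdm16*, *Ppargc1a*, *Adrb3*, *Dio2*, *Cidea*, *Pparg*, *Uchl1*, *Elane*, *Csf3r*, *Itgam* and *Tnnc2* were named after their values were seen. The members and lists were chosen with earlier results of these data known. A comparison of the proteins was planned, and no protein sequences were used here. Scripts were tested on simulated data and run in Python 3.11.15 with numpy 2.4.6, pandas 2.3.3 and scipy 1.17.1.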

Additional observations from a re-analysis of the deposited data

How the results depend on the processing

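With the deposited scaling 8 of the 36 tested genes rose past 2-fold and 3 fell past it, against 11.0% and 5.91% of all genes tested. The higher count was 5 of 30 with a filter at 5 FPKM, which removes *Pfkfb4*, *Slc16a3* and *Phkg1*. Of all genes that pass that filter, 8.31% were higher. The lower count was 0 under TPM and 3 under TPM without mitochondrial genes, where 3.33% and 5.75% of all genes tested were lower. *Phka1* passed 2-fold under TPM, at a log2 ratio of 1.27. The median log2 ratio of the muscle isoforms was 1.31 with a pseudocount of 1 FPKM, 2.03 under TPM, 1.81 with own fragment totals and 2.52 at 5 FPKM, against 1.70. The median of the other members, -0.06, was 0.27 under TPM and 0.054 with own fragment totals, and that of all members, 0.03, was 0.37 and 0.15. Of the 36 ratios, 6 turned positive under TPM (*Hk1*, *Gpi1*, *Aldoa*, *Pgam1*, *Eno1* and *Ldhb*) and 4 with own fragment totals (*Hk1*, *Pgam1*, *Eno1* and *Ldhb*), while the pseudocounts, median centring and TPM without mitochondrial genes changed no sign. Shares of fragments not divided by exon length, in the library labelled BKO against flox/flox, were 26.9% against 11.3% for *Pfkm*, 15.0% against 0.752% for *Pgam2*, 11.1% against 0.770% for *Eno3* and 24.8% against 1.16% for *Pygm*, lower because the exons of these genes sum to a shorter length than those of the other main isoforms. No paired analysis was possible because each genotype had 1 library, and for the same reason no library could be left out. *Hk3*, *Aldoc* and *Eno2* rested on 22 to 104 fragments per library, which limits the precision of their ratios.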
